A study of Homo sapiens with 2 samples.

Results

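Chromatin profiles of PRMT6 and PARP1 were read at the 32 genes that encode the 2 enzyme families to which these proteins belong, the enzymes of ADP-ribosylation and those of arginine methylation. The genes were taken by name, and all 32 were found among the 19719 protein-coding gene records used. A promoter peak had any base within 3 kb of the 5′ end of the gene record, and a peak inside the gene overlapped the record without reaching that window. The cells were untreated MDA-MB-231, an established triple-negative breast cancer line, and the study asked which genes its complex of PRMT6, PARP1 and the ubiquitin ligase CRL4B may regulate. There were 2 libraries, 1 with an antibody against PRMT6 and 1 with an antibody against PARP1, and the files give a peak list for each. A peak is a stretch with more fragments than its surroundings, and its score is the −log10 of a p- or q-value set by the peak caller.

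ADP-ribosylation enzymes move ADP-ribose from NAD onto proteins. PARP1, PARP2 and the tankyrases build chains, most other PARP enzymes attach single units, and hydrolases such as PARG and the macrodomain proteins remove them. PARP1 and PARP2 are best known for binding broken DNA, which is why their inhibitors are used against breast tumors with defects in DNA repair. Arginine methyltransferases add methyl groups to arginines of histones and other proteins. Type I enzymes, among them PRMT1, CARM1 and PRMT6, make asymmetric dimethylarginine, type II enzymes such as PRMT5 make the symmetric form, and the type III enzyme PRMT7 makes monomethylarginine.

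The PRMT6 list held 9080 peaks and the PARP1 list 11651, and read depth is not part of either. The score depends on depth, so ranks within a list were used, with tied scores given the best rank. The smallest width, 288 bp for PRMT6 and 200 bp for PARP1, was that of 53.1% and 30.1% of all peaks. With 1 library per antibody there was no replicate check and no test between libraries. Shares carry 95% exact binomial intervals, which cover counting error only. The lists hold no expression values, so marker genes of the cell line were not checked. No control library was analysed here, so binding and generally accessible chromatin cannot be told apart.

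A PRMT6 promoter peak was found at 13 of the 32 genes (40.6%, interval 23.7% to 59.4%), beside 18.3% of all protein-coding genes. A PARP1 promoter peak was found at 10 (31.25%, 16.1% to 50.01%), beside 22.5%. Both lists had a promoter peak at 7 genes (21.9%, 9.28% to 39.97%), beside 13.4%, namely PARP2, PARP3, PRMT1, PRMT2, CARM1, PRMT5 and WDR77. The intervals for PARP1 and for both lists held the share of all genes, and that for PRMT6 began above it. The peaks shared bases at 6 of the 32 genes (18.75%, beside 12.9% of all genes), and PRMT2 was the exception among the 7. Among all protein-coding genes, 2540 of the 2637 with promoter peaks in both lists had overlapping ones. A PRMT6 peak alone lay at 6 promoters (18.75%, beside 4.88% of all genes), those of PARP4, PARP6, PARP11, MACROD1, MACROD2 and PRMT7. A PARP1 peak alone lay at 3 (9.375%, beside 9.09%), those of TIPARP, PARP16 and PRMT9. At least 1 promoter peak was thus found at 16 genes (50%, 31.9% to 68.1%), beside 27.3% of all genes, and the other 16 had neither. The PRMT6 count rests in part on weak peaks. In the higher-scoring 50% of each list, 6 of the 32 genes (18.75%, 7.21% to 36.4%) had a PRMT6 promoter peak, beside 13.4% of all genes. That interval held the share of all genes.

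Of the 22 ADP-ribosylation genes, 7 had a PRMT6 promoter peak (31.8%, 13.9% to 54.9%), 4 had a PARP1 promoter peak (18.2%, 5.19% to 40.3%) and 2 had both (9.09%, 1.12% to 29.2%). Of the 10 arginine methylation genes, 6 had a PRMT6 peak and 6 a PARP1 peak (60.0%, 26.2% to 87.8% for each), and 5 had both (50%, 18.7% to 81.3%). For the ADP-ribosylation genes the PRMT6 share was above that of all genes (18.3%) and the shares for PARP1 and for both were below (22.5% and 13.4%), and all 3 intervals held the share of all genes. For the arginine methylation genes all 3 shares were above, and the intervals began above the shares of all genes. The intervals of the families overlapped in each of these, and the difference was not tested.

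**Figure D1:**
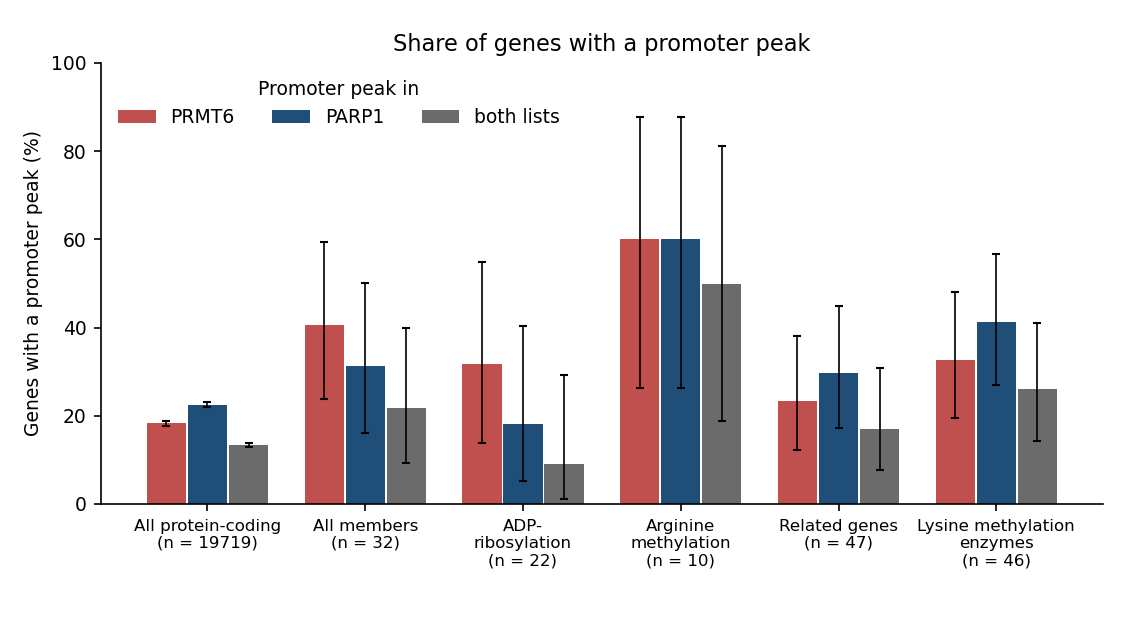
Share of genes with a promoter peak (vertical axis, percent) in the PRMT6 list, the PARP1 list and both, for all protein-coding genes, the 32 genes, their 2 families, 47 related genes and 46 lysine methylation enzymes, with n under each group. Bars are shares in 1 library per antibody, error bars are 95% exact binomial intervals, and the arginine methylation genes stand highest (60.0%, 60.0% and 50%) with the widest intervals.

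Among the 4 writers that build chains, PARP2 alone had a promoter peak, and it had one in each list (25%, 0.631% to 80.6%). The share of all genes was 18.3% for PRMT6, 22.5% for PARP1, 13.4% for both and 27.3% for either list, all within that interval. PARP2, the second PARP that answers to DNA breaks, carried the strongest PARP1 peak of the 32 genes. The PARP1 peak (chr14:20342944-20343591) ranked 13 of 11651 (score 42.8), and 6 of the 4430 genes with a PARP1 promoter peak, PARP2 included, ranked as high. The PRMT6 peak (chr14:20343012-20343613) ranked 65 of 9080 with a score of 26.01. The peaks shared 580 bases, 96.3% of the PRMT6 peak and 89.5% of the PARP1 peak, and ended 22 and 44 bp upstream of the 5′ end. Both covered the whole record of RPPH1 (chr14:20343071-20343411), the RNA subunit of RNase P, which RNA polymerase III transcribes and which shares its promoter with PARP2 in the opposite direction. That promoter, known as the H1 promoter, is widely used to express short hairpin RNAs from vectors. A peak over both genes cannot be given to 1 of them.

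The sequence just upstream of PARP2 is shown because both lists placed a top-ranked peak on it. Its first bases, with the GC box, lie inside the RPPH1 record, and the rest lies between the genes. The 250 bases upstream of the PARP2 start (RefSeq, GRCh38.p14, chr14:20343385-20343634, plus strand) lay under the PRMT6 peak for 229 bases and under the PARP1 peak for 207. Capitals mark letters of the motifs searched, here a GC box (GGGCGG, read as CCGCCC), the octamer ATGCAAAT and the cyclic AMP response element TGACGTCA.

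PARP2: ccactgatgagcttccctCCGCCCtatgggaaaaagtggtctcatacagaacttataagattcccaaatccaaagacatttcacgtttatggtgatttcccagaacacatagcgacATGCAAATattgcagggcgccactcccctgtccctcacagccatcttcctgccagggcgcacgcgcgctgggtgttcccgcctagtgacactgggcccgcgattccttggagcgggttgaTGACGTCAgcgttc

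PARP1, TNKS and TNKS2 had no promoter peak and no peak inside the gene in either list. PARP1 encodes the protein that one of the antibodies was raised against. The nearest PRMT6 peak lay 297826 bp downstream of its 5′ end, and the nearest PARP1 peak lay 254750 bp upstream. Among the 14326 protein-coding genes without any promoter peak, where the median gaps were 85.9 kb and 75.1 kb, 18.4% and 19.7% had a larger gap. TNKS, a tankyrase that acts at telomeres and in Wnt signaling, was farther still from PRMT6 peaks, at 1193478 bp. TNKS2, its close relative, lay 114109 bp from a PRMT6 peak and 125330 bp from a PARP1 peak. The 250 bases upstream of the PARP1 gene start (chr1:226408094-226408343, minus strand) are shown for contrast, as a promoter rich in G and C (70.4%) with 26 CpG pairs, 2 GC boxes and 0 bases under a peak.

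PARP1: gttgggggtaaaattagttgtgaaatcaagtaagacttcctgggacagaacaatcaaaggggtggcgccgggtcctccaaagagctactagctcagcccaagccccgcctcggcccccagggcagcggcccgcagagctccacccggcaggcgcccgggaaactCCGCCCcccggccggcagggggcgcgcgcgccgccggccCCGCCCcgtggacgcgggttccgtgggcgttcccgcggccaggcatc

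Of the other 12 PARP genes, 6 had a promoter peak in either list (50%, 21.1% to 78.9%, beside 27.3% of all genes). PARP3 alone had one in both (8.33%, 0.211% to 38.5%, beside 13.4%). PARP3 helps to repair DNA strand breaks. Its PRMT6 peak (chr3:51941906-51942336) ranked 913 (score 10.7), and its PARP1 peak (chr3:51941862-51942342) ranked 3383 with a score of 8.25. The PRMT6 peak lay entirely within the PARP1 peak, with centres 19 bp apart. The peaks nearly filled the space between PARP3 and RRP9, a divergent gene for a small nucleolar ribonucleoprotein subunit, whose 5′ ends are 459 bp apart. The centres of both peaks were closer to the RRP9 start. The 250 bases upstream of PARP3 (chr3:51942113-51942362, plus strand) hold 23 CpG pairs but none of the motifs searched, and lay under the PRMT6 and PARP1 peaks for 224 and 230 bases.

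PARP3: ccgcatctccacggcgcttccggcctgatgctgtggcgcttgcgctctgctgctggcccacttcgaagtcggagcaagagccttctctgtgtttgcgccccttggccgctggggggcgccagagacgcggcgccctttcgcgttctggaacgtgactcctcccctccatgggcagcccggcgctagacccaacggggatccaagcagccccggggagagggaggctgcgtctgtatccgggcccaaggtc

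PARP6, PARP11 and PARP4 had a PRMT6 promoter peak only. The PARP6 peak (chr15:72272546-72272901) ranked 2121 with a score of 7.59 and reached across the 5′ end. The PARP11 peak (chr12:3873338-3873626) ranked 8412 with a score of 3.35. The PARP4 peak (chr13:24512484-24512772) ranked 8745 with a score of 3.12, close to the lowest score of the list (3.09). PARP4 is a component of cytoplasmic vault particles. Both of these last peaks had the smallest width, and 321 and 331 peaks of the list share their scores. TIPARP and PARP16 had a PARP1 promoter peak only. TIPARP, a target gene and inhibitor of the aryl hydrocarbon receptor, had its peak (chr3:156674163-156674543, rank 4889, score 6.93) 47 bp upstream of the 5′ end, over the antisense gene TIPARP-AS1. PARP16, an enzyme anchored in the endoplasmic reticulum, had a peak of the smallest width across its 5′ end (chr15:65286832-65287032, rank 8153, score 5.38).

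PARP8, PARP9, PARP10, PARP12, PARP14 and PARP15 had no promoter peak and none inside the gene. PARP9, PARP14 and PARP15 stand next to each other on chromosome 3 with DTX3L, the ubiquitin ligase partner of PARP9. PARP9 and PARP14 are known as interferon-induced genes. The nearest peak to PARP9 and PARP15 in either list was a PARP1 peak of the smallest width (chr3:122573232-122573432, rank 8636, score 5.25) within DTX3L, 8448 bp upstream of PARP9 and 4218 bp upstream of PARP15. The nearest PRMT6 peaks were 180461 bp from PARP9 and 194623 bp from PARP14. PARP8 lay in the emptiest stretch, with the nearest PRMT6 peak at 1004433 bp and the nearest PARP1 peak at 999556 bp. PARP10 lay 63928 and 64016 bp from its nearest peaks, and PARP12 lay 146348 and 114257 bp from them.

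Among the 5 erasers, MACROD1 and MACROD2 had a PRMT6 promoter peak (5.27% to 85.3%, beside 18.3% of all genes) and none had a PARP1 promoter peak (0 of 5, up to 52.2%, beside 22.5%). MACROD1 and MACROD2 remove ADP-ribose from acidic residues. The MACROD1 peak (chr11:64166021-64166309, rank 7845, score 4.34) had the smallest width and spanned the 5′ ends of MACROD1 and of the divergent noncoding gene LOC105369339, which are 125 bp apart. The MACROD2 peak (chr20:13995232-13995537, rank 5718, score 4.79) spanned the 5′ ends of MACROD2 and of SEL1L2, which are 183 bp apart. PARG, the main enzyme that degrades chains, had its nearest peaks 332516 bp (PRMT6) and 383496 bp (PARP1) upstream. ADPRS, which removes ADP-ribose from serine, had them 60618 and 24369 bp downstream. HPF1, the cofactor that directs PARP1 and PARP2 to serine, had them 332101 and 137386 bp away.

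OARD1, which removes ADP-ribose from glutamate, was the case where the definition of a start site decided the count. Its record spans chr6:41064772-41097787 on the minus strand and has no peak near its 5′ end. Inside the record, a PRMT6 peak (chr6:41072464-41073325) ranked 22 (score 32.5) and a PARP1 peak (chr6:41072272-41073161) ranked 69 with a score of 28.3. RefSeq lists 3 further OARD1 start sites 25173, 25431 and 25947 bp downstream of the record's 5′ end. The first lay under both peaks, and the second under the PARP1 peak and 108 bp from the PRMT6 peak. The peaks also covered the 5′ end of NFYA, a subunit of the factor that binds CCAAT boxes, which runs in the opposite direction. With every start site of the promoter table used, OARD1 joined the genes with promoter peaks in both lists, whose number became 8 beside 14.4% of all genes.

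**Figure D2:**
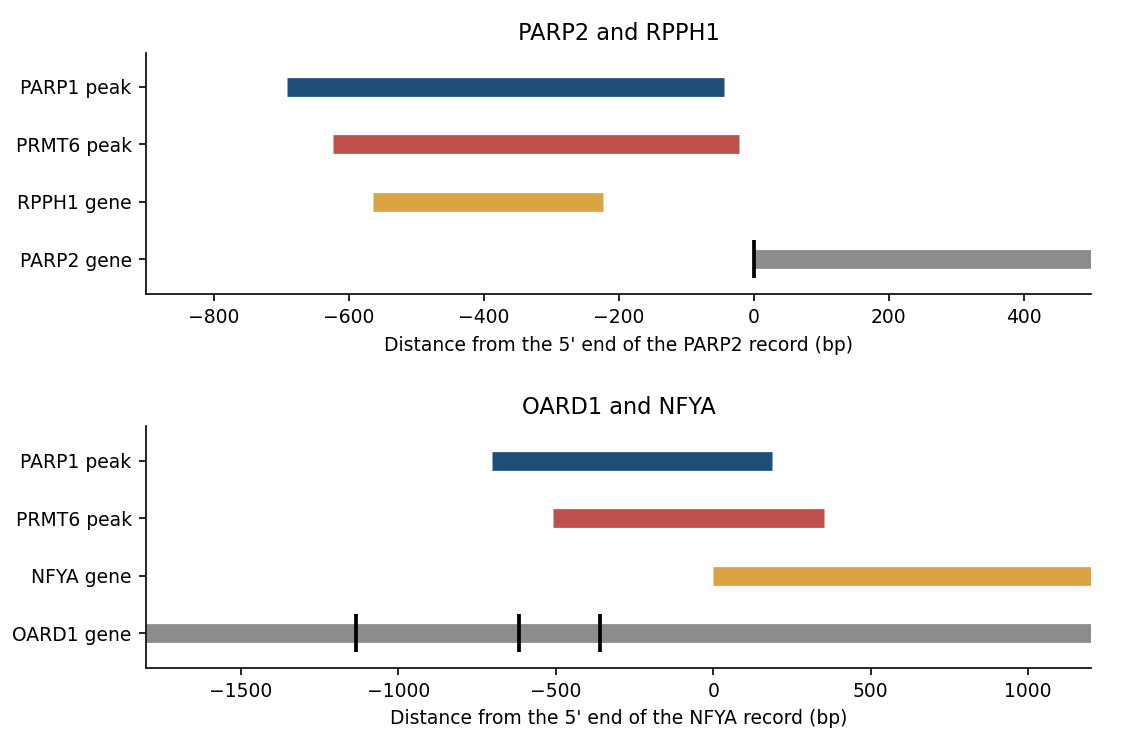
Gene records (grey and yellow) and peaks (red for PRMT6, blue for PARP1) at PARP2 and RPPH1 and at OARD1 and NFYA, by distance in bp from the 5′ end of the PARP2 record and of the NFYA record. Black ticks are start sites of PARP2 and OARD1 in the promoter table, and both peaks cover all of RPPH1 and the start of NFYA.

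The arginine methylation genes held the strongest PRMT6 promoter peak of the 32 genes, at CARM1. CARM1 methylates histones and acts as a coactivator of nuclear receptors. Its PRMT6 peak (chr19:10870894-10871479) ranked 24 of 9080 with a score of 32.3, and 21 of the 3600 genes with a PRMT6 promoter peak, CARM1 included, ranked as high. Its PARP1 peak (chr19:10870977-10871419) ranked 117 with a score of 24.6 and lay entirely within the PRMT6 peak, with centres 11.5 bp apart. No other gene's 5′ end was found within 1 kb of either peak. The 250 bases upstream of CARM1 (chr19:10871303-10871552, plus strand) hold 45 CpG pairs and 5 GC boxes, and their share of G and C was 81.6%.

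CARM1: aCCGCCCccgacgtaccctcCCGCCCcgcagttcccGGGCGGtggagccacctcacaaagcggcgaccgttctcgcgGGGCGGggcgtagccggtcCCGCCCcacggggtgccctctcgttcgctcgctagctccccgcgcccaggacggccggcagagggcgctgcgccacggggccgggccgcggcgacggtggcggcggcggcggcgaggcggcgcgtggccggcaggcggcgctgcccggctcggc

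PRMT1, the enzyme that makes most asymmetric dimethylarginine in cells, had the next strongest pair. The PRMT6 peak (chr19:49676683-49677283) ranked 180 (score 18.4) and the PARP1 peak (chr19:49676696-49677209) ranked 517 with a score of 16.3. They lay 530 to 1130 bp and 543 to 1056 bp downstream of the 5′ end of the record. RefSeq lists a start site 1118 bp downstream of that end, under the PRMT6 peak and 62 bp from the PARP1 peak. In the window from 2 kb upstream to 500 bp downstream PRMT1 was therefore counted as a gene with peaks inside it.

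PRMT2, a type I enzyme with an SH3 domain, had a promoter peak in each list without shared bases. The PRMT6 peak (chr21:46635791-46636079, rank 5468, score 5.10) began 117 bp downstream of the 5′ end. The PARP1 peak (chr21:46635396-46635682, rank 4456, score 7.27) spanned it. The peaks were 109 bp apart.

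PRMT6 itself had no peak in either list. Its nearest PRMT6 peak was 435832 bp upstream and its nearest PARP1 peak 1635962 bp downstream, and of the genes without any promoter peak 11.9% and 1.57% had larger gaps. PRMT3, which methylates a ribosomal protein, and PRMT8, a membrane-bound enzyme of the brain, had no promoter peak either. The nearest peaks to PRMT3 were 468083 bp (PRMT6) and 452519 bp (PARP1) upstream. The 250 bases upstream of PRMT6 (chr1:107056424-107056673, plus strand) hold 16 CpG pairs and none of the motifs searched, and are shown because the gene of the profiled protein carried no peak.

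PRMT6: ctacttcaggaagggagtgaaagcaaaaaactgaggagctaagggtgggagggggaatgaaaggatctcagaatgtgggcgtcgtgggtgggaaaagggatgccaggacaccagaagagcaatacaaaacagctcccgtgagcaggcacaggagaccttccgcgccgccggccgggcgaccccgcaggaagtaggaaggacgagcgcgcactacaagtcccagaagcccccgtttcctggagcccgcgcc

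The 3 genes of the type II group all had a PARP1 promoter peak (interval 29.2% to 100%, beside 22.5% of all genes), a group too small for more than a description. PRMT5 and its partner WDR77 form the complex that makes symmetric dimethylarginine, and both genes had overlapping peaks. At PRMT5 the PARP1 peak (chr14:22929366-22929798) ranked 1635 (score 10.9) and the PRMT6 peak (chr14:22929254-22929704) ranked 3341 with a score of 6.22. They shared 339 bases and spanned the 5′ ends of PRMT5 and of the divergent noncoding gene PRMT5-DT, which are 233 bp apart. The PARP1 peak also covered the arginine tRNA gene TRR-ACG1-3 (chr14:22929701-22929773), which the PRMT6 peak only touched. At WDR77 the PRMT6 peak (chr1:111449184-111449472, rank 5468, score 5.10) had the smallest width and lay within the PARP1 peak (chr1:111449145-111449552, rank 6014, score 6.35). Both spanned the 5′ end of WDR77 and that of ATP5PB, a divergent gene of the mitochondrial ATP synthase 208 bp away. PRMT9, which methylates a splicing factor, had a PARP1 peak only, centred 2 bp from its 5′ end (chr4:147684004-147684318, rank 7383, score 5.64).

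The sequences upstream of the partners are shown as the promoters of a complex whose genes both had overlapping peaks. That of PRMT5 (chr14:22929377-22929626, minus strand) has 3 CCAAT boxes, read as ATTGG, and that of WDR77 (chr1:111449257-111449463, minus strand) ends where ATP5PB begins and has 1 GC box. Every base of both lay under a peak of each list.

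PRMT5: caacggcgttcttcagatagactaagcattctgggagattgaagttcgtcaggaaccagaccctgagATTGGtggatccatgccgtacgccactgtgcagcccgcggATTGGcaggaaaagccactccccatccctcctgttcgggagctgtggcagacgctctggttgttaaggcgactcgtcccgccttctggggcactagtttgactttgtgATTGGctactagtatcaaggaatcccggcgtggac

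WDR77: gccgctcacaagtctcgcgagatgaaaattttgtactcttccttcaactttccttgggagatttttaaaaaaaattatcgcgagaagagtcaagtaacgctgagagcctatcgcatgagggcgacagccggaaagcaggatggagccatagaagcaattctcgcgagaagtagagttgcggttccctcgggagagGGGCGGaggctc

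PRMT7, the type III enzyme, had a PRMT6 promoter peak only (chr16:68310872-68311248). It ranked 6841 with a score of 4.48, a score that 994 peaks of the list share. It spanned the 5′ ends of PRMT7 and of the divergent gene SLC7A6OS, which are 73 bp apart.

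**Figure D3:**
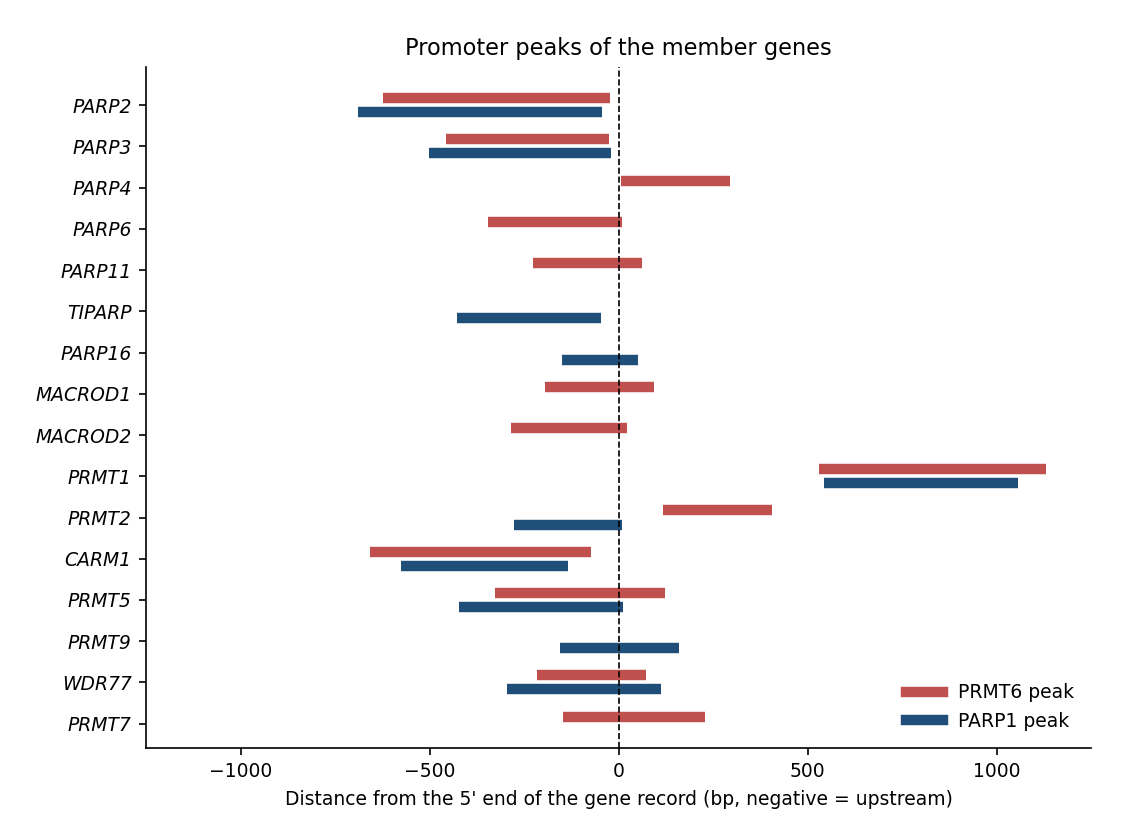
Promoter peaks of the 16 genes that had any, drawn by distance in bp from the 5′ end of the gene record (dashed line, negative is upstream), red for PRMT6 and blue for PARP1. Most peaks lie within 500 bp upstream or across the 5′ end, and the peaks of PRMT1 lie 530 to 1130 bp downstream.

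The promoter peaks of these genes lay close to the 5′ end. Their centre was within 500 bp of the 5′ end for 12 of 13 PRMT6 peaks (92.3%, beside 77.4% of all pairs of a gene and a promoter peak) and for 9 of 10 PARP1 peaks (90.0%, beside 76.3%). With negative values upstream, the median centre was at -83 bp for PRMT6 and -170.5 bp for PARP1, beside -107 and -104 bp over all such pairs. Another gene's 5′ end lay within 1 kb of the peak for 6 of the 13 genes with a PRMT6 peak (46.2%, beside 47.6% of all such genes) and for 3 of the 10 with a PARP1 peak (30.0%, beside 46.4%). RPPH1 and TRR-ACG1-3 had no strand in the tables used and are not part of these counts.

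The PRMT6 peaks of these genes were split between a few strong and many weak ones. Their median rank stood at 60.2% of the list, beside 29.4% for all PRMT6 promoter peaks, and 7 of 13 were in the lower-scoring 50% of the list (53.8%, beside 27.9%). Yet 3 of 13, at CARM1, PARP2 and PRMT1, were in the top 10% of the list (23.1%, beside 18.9%). For PARP1 the median rank was 33.6%, beside 39.8%, and the same 3 genes were in the top 10% (3 of 10, 30.0%, beside 14.02%). At the 6 genes with a PRMT6 promoter peak only, the median rank was 80.9% of the list, beside 50.7% for the 963 such genes among all. Peaks of the smallest width were found at 3 of these 6 (50%, beside 55.04%). At the 7 genes with both, the median ranks were 10.1% (PRMT6) and 14.03% (PARP1), beside 21.2% and 25.3%.

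**Figure D4:**
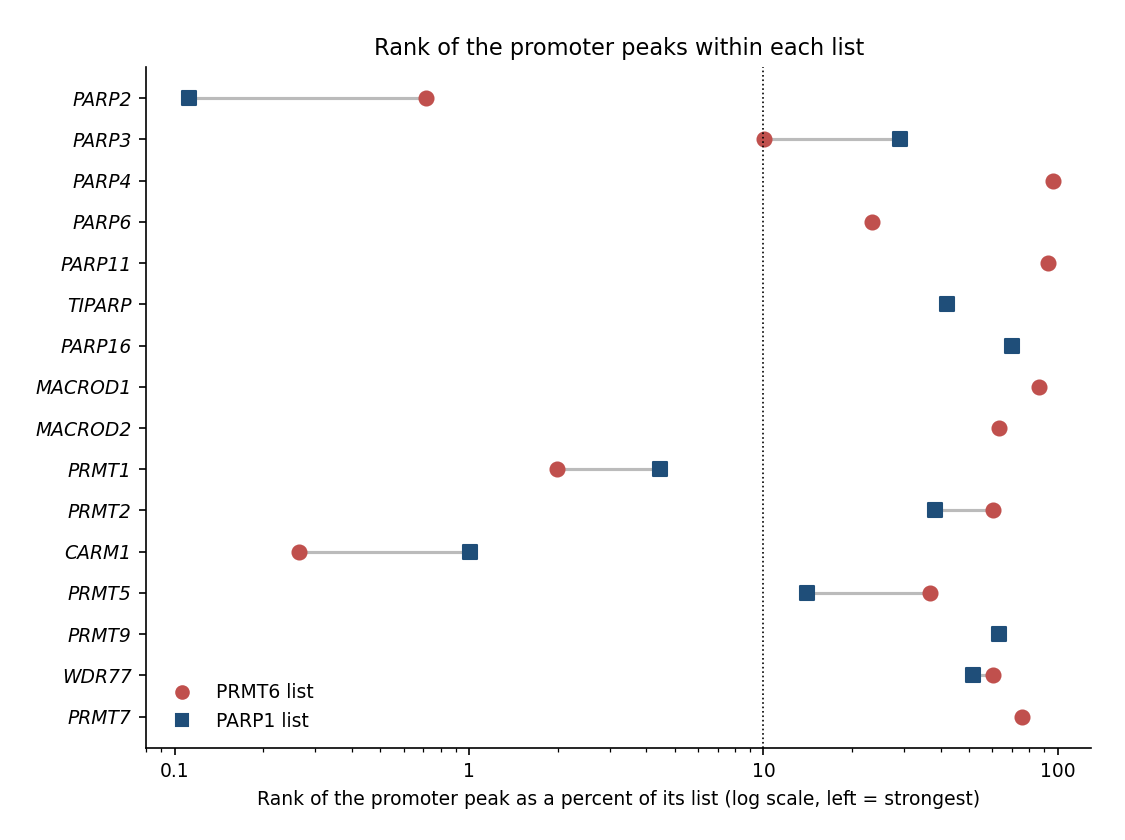
Rank of each promoter peak as a percent of its own list (log axis, strongest peaks at the left) for the 16 genes, with circles for PRMT6, squares for PARP1 and a grey line joining both where both exist. PARP2, CARM1 and PRMT1 stand left of the dotted line at 10% in both lists, and all genes with a peak in 1 list only stand right of it.

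Promoters rich in CpG pairs carried more peaks genome-wide, and most of these genes have such promoters. RefSeq promoter sequences, from 250 bases before to 50 after the start, were found for 29 of the 32 genes. The ratio of observed to expected CpG had a median of 0.913 among them, beside 0.761 for 15843 protein-coding genes, and 23 of 29 were in the upper 5 of 10 deciles. Among all genes the share with a PRMT6 promoter peak went from 3.47% in the lowest decile to 28.2% in the highest, and that with a PARP1 peak from 4.61% to 33.9%. All 15 genes with a promoter peak and a sequence were in the upper deciles, and so were 8 genes with none, PARP1, PRMT6, PRMT3, TNKS2, PARG, ADPRS, HPF1 and PARP12. With the background taken from the same deciles, the share with a PRMT6 peak was 41.4% beside 23.4%, with a PARP1 peak 34.5% beside 28.6% and with both 24.1% beside 17.1%. For PARP1 and for both lists the families lay on different sides of this background, which was not tested. For the 10 arginine methylation genes it was 24.9%, 29.9% and 18.2%, below their shares of 60.0%, 60.0% and 50%. Their PARP1 interval (26.2% to 87.8%) held this background. Their intervals for PRMT6 (from 26.2%) and for both (from 18.7%) began just above it. For the 19 ADP-ribosylation genes with a sequence the PRMT6 share was above it (31.6% beside 22.6%), and the shares for PARP1 (21.1% beside 27.8%) and both (10.5% beside 16.5%) were below.

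**Figure D5:**
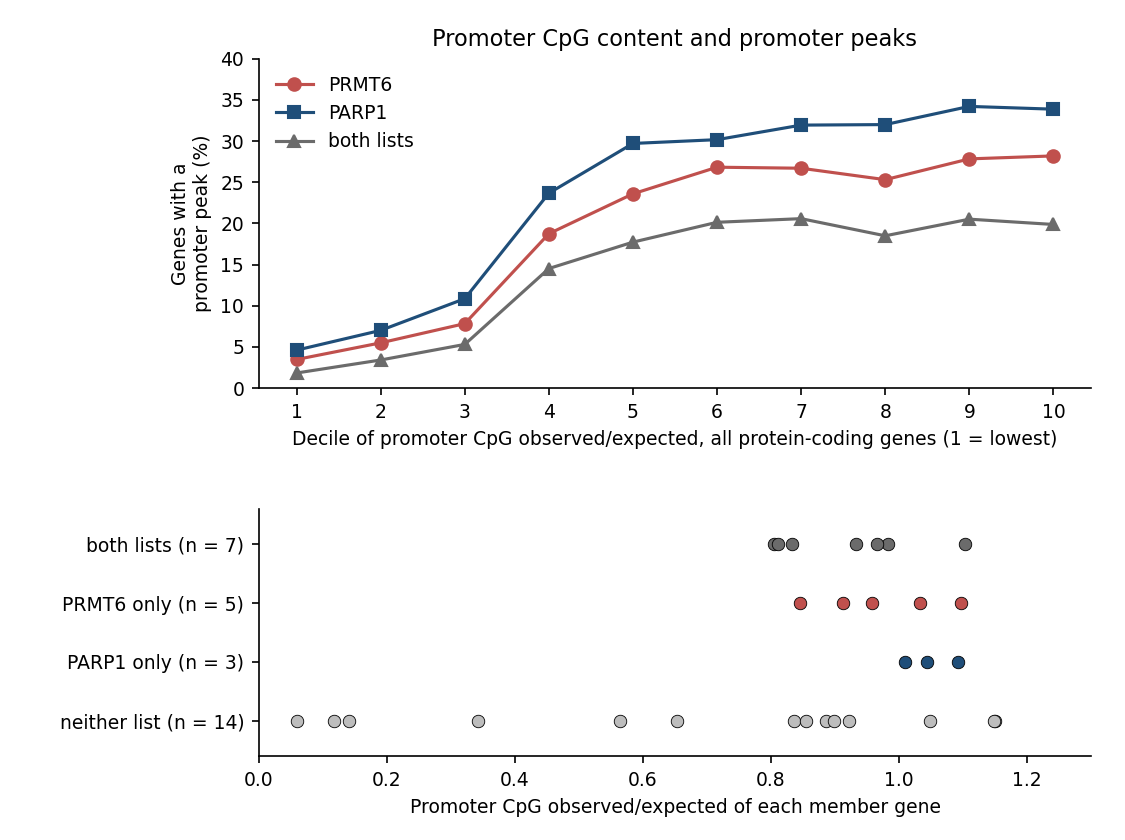
Upper panel, share of protein-coding genes with a promoter peak (percent) by decile of the observed over expected CpG ratio, for PRMT6, PARP1 and both lists. Lower panel, that ratio for each of the 29 genes with a sequence, by which list had a promoter peak; no gene with a promoter peak lies below 0.804, while genes without one span the axis.

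On both strands, 9 motifs were searched, and no match in the printed sequences overlapped another. A GC box (GGGCGG) was found in 19 of the 29 promoters (65.5%), beside 58.3% of 15843 promoters, and in 5 of the 7 with peaks in both lists, beside 75.9% of all such genes. A CCAAT box (CCAAT) was found in 9 of 29 (31.0%, beside 36.4%) and the E-box CACGTG in 5 (17.2%, beside 8.82%). The ETS motif CCGGAAGT was found at ADPRS, and TGACGTCA and ATGCAAAT at PARP2, which 6.16%, 2.56% and 1.72% of all promoters hold. The NRF1 motif, the E2F motif TTTCGCGC and the TATA box TATAAA were found in 0 of 29, beside 1.77%, 0.808% and 9.75%. A match describes these letters only.

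Outside the promoter window, 6 of the 32 genes held a peak of either list (18.75%), close to the 20.4% of all genes. These were OARD1, with the pair already described, PARP4, MACROD1, MACROD2, CARM1 and PRMT8. The 32 records span 4.001 Mb, and 1.94 Mb without MACROD2. They held 5 peaks of each list, or 1.25 per Mb, beside 2.67 (PRMT6) and 3.28 (PARP1) per Mb over all genes. Without MACROD2 the rates were 1.54 and 2.06. For PARP1 both families had a rate below that of all genes, and for PRMT6 only the ADP-ribosylation genes did. The ADP-ribosylation genes held 0.868 (PRMT6) and 1.16 (PARP1) peaks per Mb, and the arginine methylation genes 3.67 and 1.84, from 2 PRMT6 peaks and 1 PARP1 peak. MACROD2, one of the longest human genes, held 2 PRMT6 peaks (ranks 4311 and 5718) and 1 PARP1 peak (rank 6170). CARM1 held a PRMT6 peak (rank 4689) and PARP4 a PARP1 peak (rank 7383). PRMT8 held 1 of each, 126859 and 93836 bp downstream of the 5′ end, with ranks of 4835 and 11394. Apart from OARD1, none of these overlapped a peak of the other list.

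The neighbours of both pathways were read from lists of 47 related genes. A PRMT6 promoter peak was found at 11 (23.4%, 12.3% to 38.03%), a PARP1 promoter peak at 14 (29.8%, 17.3% to 44.9%) and both at 8 (17.02%, 7.65% to 30.8%). Each interval held the share of all genes (18.3%, 22.5% and 13.4%). Both lists had promoter peaks at 2 of 16 readers and other hydrolases of ADP-ribose and 2 of 10 genes of NAD supply and use. They also had them at 2 of 14 partners, readers and other enzymes of arginine methylation. The last group was 2 of 7 genes that supply S-adenosylmethionine, the methyl donor. The interval of each of these shares held the 13.4% of all genes. The 5 with the best mean rank were NUDT16, a hydrolase that cleaves ADP-ribose (ranks 822 and 1754 in the PRMT6 and PARP1 lists), XRCC1, the repair scaffold recruited by ADP-ribose chains (1139 and 3398), AHCYL2, a relative of the enzyme that clears S-adenosylhomocysteine (1420 and 3323), NAMPT, the rate-limiting enzyme of NAD salvage (3890 and 2636), and BTG1, which binds PRMT1 (3311 and 3909). In all 5 the peaks overlapped. The other large family of chromatin-modifying enzymes was read as 46 lysine methyltransferases and demethylases. Their counts were 15 (32.6%, 19.5% to 48.02%), 19 (41.3%, 27.0% to 56.8%) and 12 (26.1%, 14.3% to 41.1%). Each of these intervals began above the share of all genes, as those of the arginine methylation genes did. Intervals that begin above all genes were thus not particular to arginine methylation. Each interval of the lysine enzymes also overlapped that of the 32 genes.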

How the data were processed

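Untreated MDA-MB-231 cells gave 1 library per antibody. The methods of the study name CUT&Tag (antibody-directed cutting by a transposase), while the labels also describe ligation of precipitated DNA, and which was used is not clear. Peaks were called by the authors using MACS, and the deposited lists hold a position and a score, the −log10 of a p- or q-value. The submitters' processing notes name CASAVA 1.4, Bowtie 0.12.8, MACS, MACS2 and hg19. Yet 55 PRMT6 peaks on 7 chromosomes and 61 PARP1 peaks on 5 end beyond the GRCh37 chromosomes, so GRCh38 was used. Read depth, thresholds and the treatment of duplicates are not given in the sources used here.

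Gene records were those of RefSeq (GRCh38.p14). Strand came from the RefSeq promoter table for 15843 protein-coding records and from the GENCODE gene of the same name for 3876, and 318 without a strand were left out. Each record had 1 start, its 5′ end. Overlap meant at least 1 shared base, with pandas 2.3.3 and numpy 2.4.6 under Python 3.11.15, and the overlaps between lists were checked against bedtools 2.31.1. Intervals came from scipy 1.17.1. The assignment code was tested on simulated data. All members are described, and of the related genes the 5 with peaks in both lists and the best mean rank. The members and gene lists were chosen with earlier results of these data known, and the octamer was added after the promoters were read. Alternatives covered the score, peak width, list length, promoter window, start sites and overlap rule. No test was run. Exons, introns and untranslated regions were not analysed here.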

Additional observations from a re-analysis of the deposited data

How the results depend on the processing

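Of 35 alternatives computed for 5 counts of the 32 genes, 31 stayed within 1.5 times and 4 moved further. In the higher-scoring 50% of each list, 6 genes had a PRMT6 promoter peak (18.75%, beside 13.4% of all genes). A peak inside the gene was left at 2 (6.25%, beside 10.05%). Without peaks of the smallest width these numbers were 8 (25%, beside 13.2%) and 3 (9.375%, beside 11.7%). Both settings use fewer peaks by construction, so the shares of all genes fell too. Genes with promoter peaks in both lists numbered 5 to 8 over all settings, and those with overlapping peaks 4 to 7. The shares of all genes ran from 8.99% to 14.4% and from 8.84% to 13.8%. Where a peak went only to the nearest 5′ end these numbers were 5 and 4, without PARP3 and PRMT5. The shares were then 15.6% and 12.5%, beside 9.15% and 8.86% of all genes. PARP2 stayed in both numbers, but RPPH1 had no strand and was not among the 5′ ends compared. The centres of both PARP2 peaks lie inside the RPPH1 record. That setting and the one with every RefSeq start site were chosen after the data were seen. No paired analysis was possible because PRMT6 and PARP1 were profiled with 1 library each. Depth is unknown, so the absence of a peak says only that none was called.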

Other observations

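The 47 related records span 2.82 Mb and held 14 PRMT6 peaks (4.96 per Mb) and 13 PARP1 peaks (4.61 per Mb), beside 2.67 and 3.28 per Mb over all genes. A peak of either list beyond the promoter was held by 7 of 16 readers and hydrolases of ADP-ribose and 6 of 10 genes of NAD supply and use. It was held by 1 of 14 arginine methylation partners, readers and other enzymes and 2 of 7 genes of S-adenosylmethionine supply. The share of all genes was 20.4%. Those of NAD supply and use included NMNAT2, an NAD-synthesizing enzyme of neurons, with 1 PRMT6 and 3 PARP1 peaks, and NADK, which makes NADP, with 1 of each. The best-ranked peaks inside a related gene were those of ADPRHL1, a catalytically inactive relative of the ADP-ribose hydrolases, with ranks of 439 (PRMT6) and 1168 (PARP1) in the lists. Next came XRCC1 in the PRMT6 list (rank 791) and AHCYL1 in the PARP1 list (rank 1177). ADPRHL1, AHCYL1, NMNAT2 and NADK were named after their values were seen, and no difference between these lists was tested.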
